A study of Mus musculus with 8 samples.

Results

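Among the loci whose chromatin opened most steeply within 2 h of Ikaros induction in pre-B cells were the neighbouring lysozyme genes Lyz1 and Lyz2 on chromosome 10 and the grancalcin gene Gca on chromosome 2. The 3 genes were selected on the rise in percentile of a nearby region from 0 h to 2 h in these same libraries, so that rise itself is given as a description and without a test. Their members are all accessible regions with a peak summit in the gene or within 50 kb of it, which gave 27 of the 174718 regions of the series, 13 around Lyz1 and Lyz2 and 14 around Gca. A region is the union of overlapping peaks of the 8 peak lists.

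The assay was ATAC-seq, where Tn5 transposase cuts accessible DNA and tags its ends. It was run on B3 cells, a line derived from a mouse lymphoma that resembles pre-B progenitors. All libraries came from B3 cells transduced with Ikaros-ERt2, a fusion of Ikaros (IKZF1) with the estrogen receptor's ligand-binding part, which 4-hydroxytamoxifen (4-OHT) drives into the nucleus. There were 2 libraries from untreated cells (0 h) and 2 from each of 3 exposures to 500 nM 4-OHT, which lasted 30 min, 1 h and 2 h. Untreated cells carried the same construct and had no 4-OHT, so the drug and Ikaros cannot be told apart, and a single line stands for the pre-B stage. Nothing in the labels says that replicates were separate cultures, so p-values measure only the spread between these libraries.

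Lysozymes cleave the peptidoglycan of bacterial cell walls. Lyz2 is the lysozyme of macrophages and neutrophils and a standard marker of myeloid cells, and Lyz1, its tandem duplicate, is the lysozyme of Paneth cells of the gut. Gca encodes grancalcin, a calcium-binding protein with penta-EF hands that is abundant in neutrophils. These are therefore genes of other cell types, seen here in a B-lineage line. Ikaros binds DNA words with a GGGAA core and is best known for silencing genes during lymphocyte development, often from distal elements.

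The lists held 85903 to 103897 peaks each, with a background of 0.26 to 0.405 fragments per base and a median of 11 to 14 fragments at a summit. The fragment number at the summit shows the raw depth of a peak, and the percentile is the rank of a peak by its fold over local background among all peaks of its own list, from 0 to 100, which can be set beside other libraries. A region enters the test if all 8 lists have a peak in it, as 47875 did. Pre-B identity was visible at promoters, since 9 of 10 pre-B marker genes had a promoter peak and 7 had one in all 8 lists. The summed fragments of these promoters were 513 to 649 at 0 h and 382 to 480 at 30 min. They were 334 to 372 at 1 h and 320 to 385 at 2 h. The largest falls by 2 h were at Igll1 (122 and 94 fragments, then 26 and 23) and Vpreb1 (79 and 43, then no peak). Cd79a fell less (97 and 89, then 60 and 54). Cd79b changed little (68 and 56, then 63 and 50), and Blnk did not fall (52 and 36, then 63 and 42). None of the 9 tested regions was called at 2 h (limma, adjusted p under 0.01). Over all tested promoter regions 1.01% were called higher and 1.74% lower, so no call among 9 is near this background. Vpreb1, without a peak at 1 h and 2 h, could not be tested. Whether the fall of the sum bears on the opening was not tested. Of 10 myeloid markers only Fcgr3 had a promoter peak, with 6 to 9 fragments at 1 h and 2 h and none at 0 h or 30 min. The promoters of Csf1r, Csf3r, Cebpa, Cebpe, Mpo, Elane, Itgam, Cd14 and Ly6g had no peak in any list.

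The steepest opening near the lysozyme genes was in chr10:117322747-117323027 (GRCm38), a region of 281 bp between genes, 29879 bp before the start site of Lyz1. Its DNA is shown because it is the element that opened, with matches to an E-box (CANNTG), an EBF word (CCCNNGGG), a Runt word (TGTGGT) and an AP-1 word (TGANTCA) in capitals, in this order, on the plus strand.
Lyz1 upstream region: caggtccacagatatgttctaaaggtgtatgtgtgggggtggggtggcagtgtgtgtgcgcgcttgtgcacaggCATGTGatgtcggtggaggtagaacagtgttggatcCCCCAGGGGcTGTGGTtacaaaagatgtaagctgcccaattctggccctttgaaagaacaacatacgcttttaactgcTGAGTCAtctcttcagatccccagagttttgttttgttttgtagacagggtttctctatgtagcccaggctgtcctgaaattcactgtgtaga

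In the Gca window the opening region was chr2:62691900-62692172, a stretch of 273 bp in the last exon of Gca, in its 3′ untranslated part, which begins 313 bp after the last coding base and lies 27615 bp from the Gca start site. Only 27 bases of it are shown, chr2:62692021-62692047 on the plus strand, because they hold an AP-1 and an E-box word (capitals) close to the summit.
Gca last exon, part: gagTGAGTCAgaggggaCAGCTGcact

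The region upstream of Lyz1 was higher at each later time. Its summit held 8 and 4 fragments in the untreated libraries, 20 and 22 after 30 min, 34 and 33 after 1 h, and 74 and 61 after 2 h. The means were 6.0 ± 2.83, 21.0 ± 1.41, 33.5 ± 0.707 and 67.5 ± 9.19 fragments (SD, n = 2 each), so that the 2 h value was 11.2 times the 0 h value. Each later pair of libraries lay above the pair before it, in fragments and in percentile. Over all tested regions both libraries lay above both earlier ones in 33.9% for 30 min against 0 h, 21.1% for 1 h against 30 min, 16.7% for 2 h against 1 h and 40.6% for 2 h against 0 h. The exact Poisson interval (95%) of the fragments, which covers counting error only, was 3.45 to 15.8 and 1.09 to 10.2 at 0 h against 58.1 to 92.9 and 46.7 to 78.4 at 2 h. By percentile the region lay at 35.1 and 6.73 without 4-OHT, 78.7 and 84.7 after 30 min, 90.3 and 88.7 after 1 h, and 99.0 and 98.1 after 2 h. The untreated libraries were far apart, with few fragments each (the lowest peaks at background level had 3 or 4), and the later libraries were close together.

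The Gca region followed a similar course at a smaller final height. It held 6 and 5 fragments without 4-OHT, 17 and 15 after 30 min, 31 and 35 after 1 h, and 49 and 44 after 2 h. The means were 5.5 ± 0.707, 16.0 ± 1.41, 33.0 ± 2.83 and 46.5 ± 3.54 fragments (SD, n = 2 each), and the 2 h mean was 8.45 times the 0 h mean. Its percentile went from 21.2 and 22.3 through 76.8 and 74.9 and then 93.2 and 95.3 to 98.1 and 96.9. Here, too, the 4 times did not overlap, as the rule made likely for 0 h and 2 h. The steps differed between the loci as values. From 30 min to 1 h the mean fragments rose 1.6 times at the lysozyme region and 2.06 times at Gca, and from 1 h to 2 h they rose 2.01 and 1.41 times. Whether these steps differ between the loci was not tested.

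**Figure D1:**
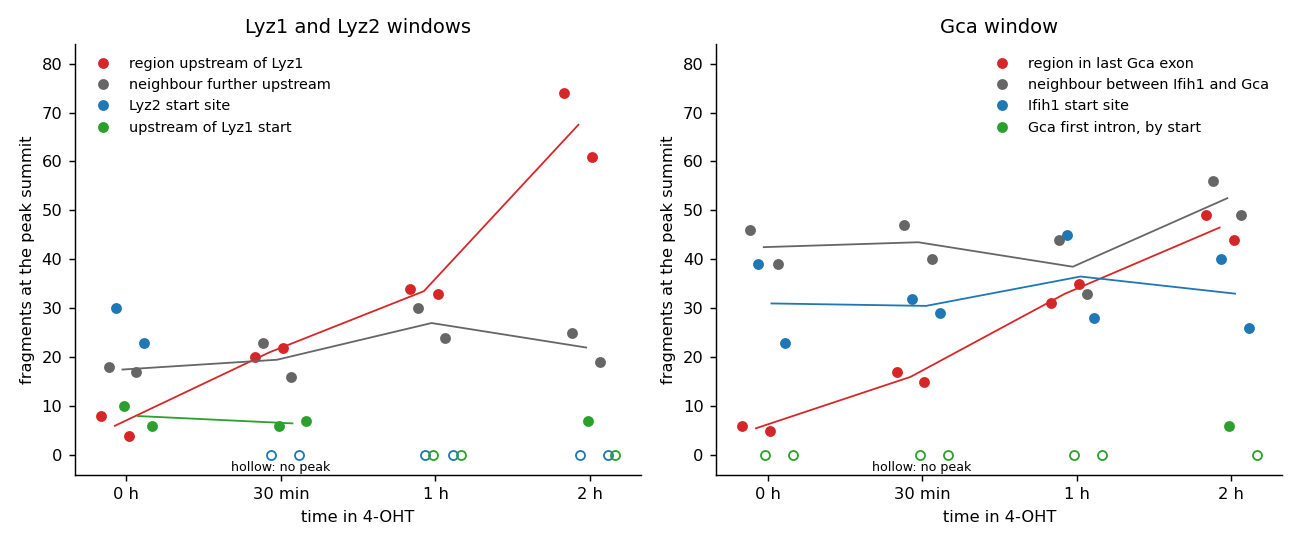
Fragments at the peak summit (y axis) at each time in 4-OHT (x axis), for the opening region, another region with a peak in every list, and the regions at or near start sites, in the Lyz1 and Lyz2 windows (left) and the Gca window (right). Each dot is 1 library, hollow dots at 0 are lists without a peak, and lines join the means of times at which both lists have a peak; the red regions climb from 4 to 8 fragments at 0 h to 44 to 74 at 2 h, while the Lyz2 start site has 30 and 23 at 0 h and no peak afterwards.

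Summits of all 8 libraries lay within 92 bp of each other upstream of Lyz1 and within 62 bp at Gca, and those of the 6 induced libraries within 48 bp and 62 bp. The called peaks widened from 71 and 180 bp at 0 h to 237 to 270 bp after induction upstream of Lyz1, and from 137 and 143 bp to 176 to 266 bp at Gca. The local background that the caller set around the lysozyme region also rose, from 0.485 and 0.269 fragments per base at 0 h to 1.44 and 1.29 at 2 h. The fold over background, from 6.06 and 3.94 to 30.7 and 27.0, therefore rose less than the fragments did.

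How steep these rises were depended on the scale. By gain in mean percentile points, the Lyz1 region (77.7 points) ranked 7 and the Gca region (75.8 points) ranked 9 among the 47875 tested regions. The 6 regions ahead of both gained 78.8 to 81.7 points and lay nearest to the coding genes Slc28a3, Cmc1, Efcab2, Endod1, Spata4 and Rprm. They began lower, at mean percentiles of 6.51 to 10.6, and ended at 85.3 to 92.3, below both loci described here. On normal scores of the percentile, which stretch the top of the scale, the Lyz1 region ranked 1 with a shift of 3.15 and the Gca region 4 with 2.76, where the median tested region shifted by 0.17. On log2 fragments over background they ranked 1 and 4 as well, with rises of 3.53 and 3.04. In the test of 2 h against 0 h, 2.5% of all tested regions were called higher and 2.73% lower (limma, adjusted p under 0.01). Both opening regions were among the higher ones by choice.

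**Figure D2:**
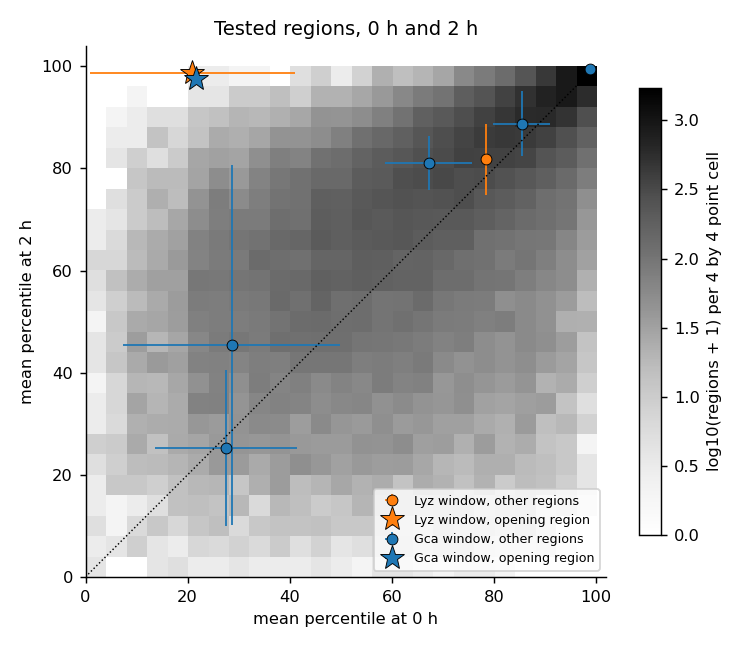
Mean percentile of tested regions at 0 h (x axis) and 2 h (y axis), with the number of regions as grey shade on a log10 scale and the 8 tested regions of the windows as coloured symbols (bars are SD, n = 2). The stars, the opening regions, sit at 20.9 and 21.7 on the x axis and 98.6 and 97.5 on the y axis and the other 6, none of which was called, lie at 25.2 to 99.5 on the y axis.

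The step from 30 min to 1 h uses neither the 0 h nor the 2 h libraries that chose the regions, so it could be tested. It was fitted on these 4 libraries alone. The Lyz1 region shifted by 0.35 normal score units (SE 0.21, limma adjusted p = 0.641) and the Gca region by 0.88 (SE 0.21, adjusted p = 0.471), upwards in both. No region of the series passed an adjusted p under 0.01 in this comparison (limma), while 2267 (4.74%) were higher and 2165 (4.52%) lower at an unadjusted p under 0.05, so this step did not pass the test at either locus. In both regions the 1 h libraries lay above both 30 min libraries, which held for 21.1% of all tested regions.

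Of the 27 regions, 8 had a peak in all 8 lists and could be tested. The 6 other than the opening regions served as neighbours, and none was called in any contrast with 0 h (lowest limma adjusted p = 0.193). Over all tested regions the share called higher and lower was 0.0% and 0.0% after 30 min, 0.986% and 1.02% after 1 h, and 2.5% and 2.73% after 2 h, so no call among 6 is near this background. Their shifts at 2 h ranged from -0.09 to 0.48 with a median of 0.25, near the median of 0.17 over all tested regions.

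Around the lysozyme genes the only neighbour with a peak in every list was chr10:117330628-117330788, between genes and 7601 bp further upstream of Lyz1. It had 18 and 17 fragments without 4-OHT, 23 and 16 after 30 min, 30 and 24 after 1 h, and 25 and 19 after 2 h. Its mean percentile was 78.5 ± 0.538 at 0 h and 81.8 ± 6.99 at 2 h (SD, n = 2; shift 0.14, SE 0.24, limma adjusted p = 0.711). The percentiles of 0 h and 2 h overlapped. Within each library, the opening region held 0.444 and 0.235 times the fragments of this neighbour without 4-OHT, 0.87 and 1.38 times after 30 min, 1.13 and 1.38 times after 1 h, and 2.96 and 3.21 times after 2 h. This ratio does not depend on library depth, and it passed 1 in both libraries from 1 h on.

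In the Gca window the strongest neighbour was chr2:62654598-62654793, between Ifih1 and Gca. It was near the top of every list, with 46 and 39 fragments without 4-OHT, 47 and 40 after 30 min, 44 and 33 after 1 h, and 56 and 49 after 2 h, and with percentiles of 95.5 to 99.7. Its shift at 2 h was 0.31 (SE 0.26, limma adjusted p = 0.411). The Gca opening region had 0.13 and 0.128 times its fragments without 4-OHT, 0.362 and 0.375 times after 30 min, 0.705 and 1.06 times after 1 h, and 0.875 and 0.898 times after 2 h. At 1 h and 2 h the opening region was thus close to the strongest site of the window.

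The intron region chr2:62685202-62685544 lies inside Gca, 6356 bp from the opening region, and is the tested region closest to it. Its fragments were 6 and 8 without 4-OHT, 11 and 11 after 30 min, 15 and 13 after 1 h, and 18 and 8 after 2 h. The shift at 2 h was 0.48 with an SE of 0.44 (limma adjusted p = 0.452), and the 2 h libraries were further apart than those of any other time. Of the regions in introns of Ifih1, chr2:62630560-62630746 held 12 to 21 fragments (shift 0.43, SE 0.23, adjusted p = 0.196), and chr2:62643497-62643598 held 7 to 11 (shift -0.09, SE 0.39, adjusted p = 0.892). The difference between each opening region and its tested neighbours was compared between 1 h and 30 min by an exact permutation test over 6 splits of 4 libraries (two-sided), for 6 pairs. It was larger at 1 h in 5 pairs, all at Gca, by 0.5 to 1.19 normal score units (exact p = 0.333 each, the smallest this design allows; adjusted p = 0.4), and differed by -0.03 at the lysozyme locus (exact p = 1.0).

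**Figure D3:**
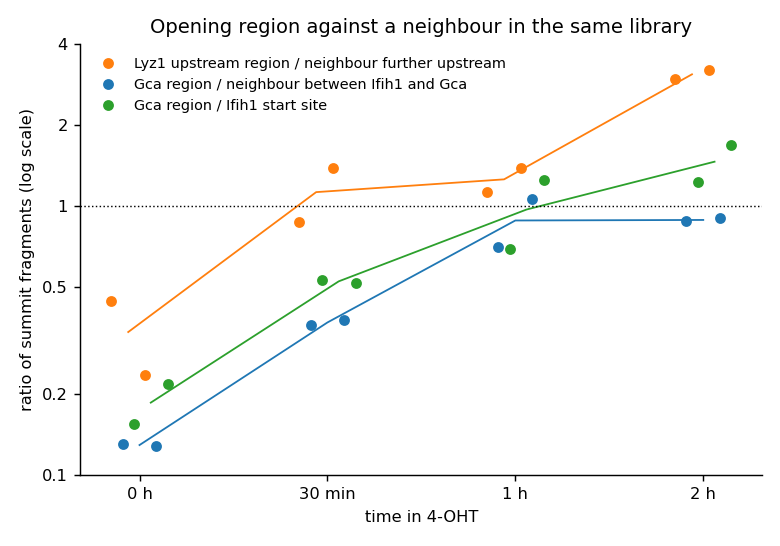
Ratio of summit fragments of an opening region to those of a neighbour in the same library (y axis, log scale) at each time in 4-OHT (x axis). Dots are libraries and lines join the means of 2; the ratio to the neighbour further upstream of Lyz1 rises from 0.235 and 0.444 to 2.96 and 3.21, and that to the region between Ifih1 and Gca from 0.128 and 0.13 to 0.875 and 0.898.

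The start sites did not share the course of the opening regions. The Lyz2 promoter had a peak only before induction. The region chr10:117282184-117282441 spans the Lyz2 start site and had 30 and 23 fragments in the untreated libraries, at percentiles 91.6 and 87.9, and no peak in any of the 6 induced lists. At 0 h it was the strongest region around the lysozyme genes. Loss of this kind was uncommon: of the 69814 regions with a peak in both 0 h lists 8.3% had none in all 6 induced lists, and of the 22247 with 20 or more fragments in both 0 h lists 1.25% did, among promoter regions of that strength 50 of 9408 (0.531%). The level of 20 fragments was chosen after the values were seen.

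With a missing peak set to the lowest percentile of its list, the fit over the 126504 regions in at least 2 lists called the Lyz2 promoter lower at 30 min, 1 h and 2 h (limma adjusted p = 0.000229, 0.000182 and 0.000159), as it did 4.63%, 5.39% and 5.88% of those regions, with 3.23%, 4.86% and 5.88% called higher. The promoter entered this fit only through its peaks in the untreated lists, and all 6 induced values were imputed. A call could therefore only be lower, and it does not support the loss. The 6 imputed values are nearly identical, which lowers the spread in this fit. The weak region chr10:117301725-117301920, with 7 and 8 fragments at 0 h and no peak later, was called much the same (limma adjusted p = 0.000281, 0.000222 and 0.000196). These p-values thus do not reflect the strength of the promoter. An exact permutation test over the 28 ways to pick 2 of 8 libraries, with a missing peak as 0 fragments, gave p = 0.0357 (two-sided), the smallest possible, and 0.107 adjusted over the regions nearest the start sites of the 3 genes; it was added after the values were seen. A missing peak does not mean no fragments, since the lowest peaks at background level had 3 or 4, so no fold change is given.

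The part of the Lyz2 promoter region before the start site, chr10:117282322-117282441, is shown with the stretch that aligned to it before the Lyz1 start site, chr10:117292918-117293036, both on the minus strand and so in the direction of transcription. Capitals mark the words GGAA and GGGA on either strand, the core of Ikaros sites.
Lyz2 promoter: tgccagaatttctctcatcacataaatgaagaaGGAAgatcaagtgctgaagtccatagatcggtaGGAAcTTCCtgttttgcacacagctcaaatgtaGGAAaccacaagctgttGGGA
Lyz1 counterpart: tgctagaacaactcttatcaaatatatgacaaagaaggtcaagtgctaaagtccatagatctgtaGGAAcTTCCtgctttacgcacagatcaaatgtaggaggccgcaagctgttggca

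Of the 120 Lyz2 bases, 99 (82.5%) were identical in Lyz1, with no identical run over 14 bases. The Lyz2 stretch held 5 core words and the Lyz1 stretch 2, and no list had a peak in the latter. The nearest region to the Lyz1 start site, chr10:117293723-117293949, began 855 bp before it and was weak, with 10 and 6 fragments at 0 h, 6 and 7 at 30 min, no peak at 1 h, and 7 in the first 2 h library only. Untreated and induced libraries overlapped (exact permutation test with a missing peak as 0 fragments, two-sided, p = 0.25). Paralogs share reads where their sequence is the same, and how the aligner treated such reads was not examined.

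The Gca start site had almost no called peak. A single list, the first 2 h library, had a peak within 1 kb of it, with 6 fragments, in the first intron (chr2:62664541-62664621). The gene thus opened near its 3′ end without a peak of any strength at its start. The promoter in the Gca window belongs to Ifih1, which encodes MDA5, a sensor of double-stranded RNA in the cytoplasm. The region across its start site (chr2:62646013-62646308) had 39 and 23 fragments without 4-OHT, 32 and 29 after 30 min, 45 and 28 after 1 h, and 40 and 26 after 2 h. Its mean percentile was 85.4 ± 5.6 at 0 h and 88.8 ± 6.46 at 2 h (SD, n = 2; shift 0.18, SE 0.26, limma adjusted p = 0.645), and the libraries of all times overlapped. A second region 412 bp away, chr2:62645613-62645741 in a coding exon, had a peak at 1 h only, with 10 and 6 fragments.

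**Figure D4:**
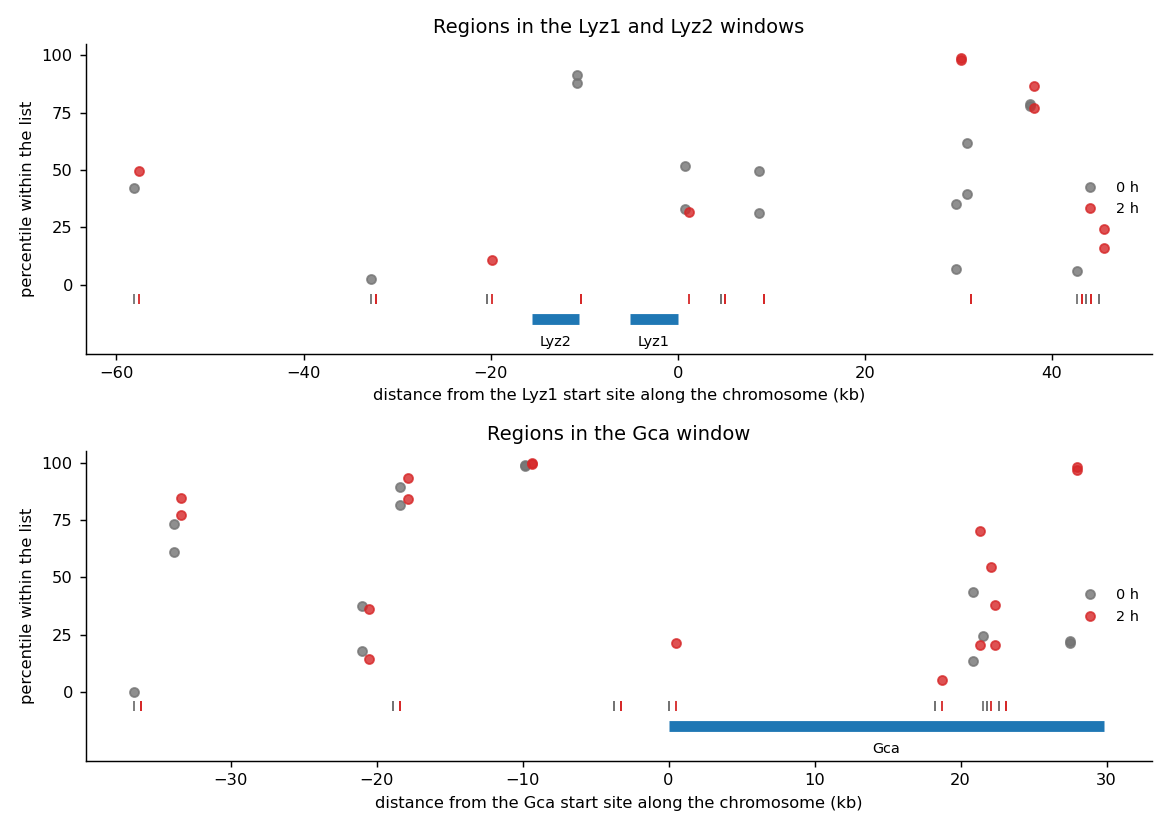
Percentile of each region within its list (y axis) against distance from the start site of Lyz1 (top) or Gca (bottom) along the chromosome (x axis, kb), for the 2 libraries of 0 h (grey) and of 2 h (red); small ticks below 0 mark a list without a peak and blue bars are the genes. Lyz1 and Lyz2 are transcribed to the left and Gca to the right; at 2 h the highest points of the top map are the opening region at 99.0 and 98.1, and the Lyz2 start site has grey points only.

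The other 18 untested regions were weak, with 3 to 17 fragments wherever they had a peak. Of all 13 regions in the lysozyme windows, 7 had peaks in 2 to 7 lists and 4 in 1 list. The region chr10:117301725-117301920, 8857 bp before Lyz1, shared the pattern of the Lyz2 promoter, with 7 and 8 fragments at 0 h and no peak later. The closest neighbour of the opening region, chr10:117323887-117324079, had 13 and 7 fragments at 0 h, 7 in the second 30 min library and no peak in any other list. In contrast, chr10:117338097-117338226 had no peak at 0 h, 7 and 11 fragments at 30 min, 17 in the first 1 h library, and 7 and 7 at 2 h, and chr10:117336679-117336790 had 8 and 6 at 1 h only. A peak in induced lists only was found in 4 of the 13 lysozyme regions and 6 of the 14 Gca regions, against 38.8% of all 174718 regions, and a peak in untreated lists only in 4 and 1, against 11.7%. With 6 induced lists and 2 untreated ones, the first kind is favoured by the number of lists.

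The share of a window's summit fragments that fell in the opening region sums up this change. It was 8.79% and 5.33% at 0 h in the lysozyme windows, 31.7% and 34.9% after 30 min, 34.3% and 48.5% after 1 h, and 62.7% and 63.5% after 2 h. In the Gca window, where other sites stayed open, it was 4.8% and 4.95% before induction and 22.6% and 25.7% at 2 h. The lysozyme windows held a peak in 7 and 8 regions at 0 h and in 5 and 4 at 2 h, while the 2 h lists as a whole held more peaks than those of 0 h; a region without a peak can still hold a few fragments. In the Gca window 7 regions had a peak in each 0 h list, and 9 and 8 did in those of 2 h.

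Sequence words were searched on both strands in the 200 bp around the summit with the most fragments. Both opening regions held an AP-1 word, 74 bp and 52 bp from the summit, which 6.77% of all tested regions did and 9.52% of the 1197 other regions called higher at 2 h. The Runt word lay 6 bp from the Lyz1 region's summit and was absent from the 200 bp at Gca (23.4% of tested regions, 35.8% of the others called higher). The Lyz2 promoter, which had no peak after induction, also held 1 Runt word, 7 bp from its summit. It held 3 E-boxes and 1 Ikaros core GGGAA as well. The 2 matches of the EBF word upstream of Lyz1 overlap at 1 place (12.2% of tested regions). The E-box, the commonest word (68.1%), was found 1 time at the Lyz1 region and 2 times at the Gca region. Neither held the Ikaros core GGGAA, present in 42.3% of tested regions and 26.2% of the others called higher, nor the forkhead (TGTTTAC, 2.27%), KLF or SP (GGGCGG, 19.0%), PU.1 (GAGGAAGT, 5.45%) or C/EBP word (TTGCNNAA, 7.35%), nor the estrogen receptor word, which no tested region held.

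The shorter Ikaros words GGAA and GGGA were more numerous at the Lyz2 promoter than at the opening regions. Whether such counts differ between closing and opening regions in general was not tested. The 200 bp around the Lyz2 promoter summit held 7 of them, and 16.8% of tested regions held as many or more. Each opening region held 2, against a median of 4.0. The repeat-masked part of the genome made up 54.1% of the Lyz1 region, the AP-1 word included, and none of the Gca region. A word match is a description of these letters and not a binding site.

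By the 8 normal scores, the tested regions outside the windows most like the Lyz1 region were nearest to the coding genes Rhoh, Fbxo11, Mc5r, Efcab11 and Comtd1 (Euclidean distance 0.7 to 1.2, with a median of 3.7 over all tested regions). Those most like the Gca region were nearest to Lingo3, Tgfbr2, Comtd1, Prrc2c and Spag6 (distance 0.88 to 0.98, median 3.42). The Comtd1 region, in an untranslated exon 2041 bp from a start site, was in both lists. The opening regions were themselves 1.1 apart, with 3 tested regions closer to the Lyz1 region and 14 closer to the Gca region. Both were chosen on their 0 h and 2 h values, which are part of the 8 scores. Their closeness was therefore favoured by the choice. Likeness here means the same 8 ranks.

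Relatives of the genes were examined at their promoters, within 1 kb of a start site. Of 8 lysozyme family genes 5 had a promoter peak in some list and none had one in all 8, so none could be tested. Lyzl4 had 20 and 11 fragments at 0 h and 6 or no peak at 2 h, while Lyzl6 had no peak at 0 h and 7 and 9 fragments at 2 h. Lyzl1 had a peak at 2 h only, with 11 and 7 fragments. Spaca3, Spaca5 and Lalba had no promoter peak. Of 7 penta-EF-hand genes, Sri, Pef1, Pdcd6 and Capns1 had promoter regions in all lists and none of their 6 regions was called at 2 h (median shift of the strongest regions 0.01). Over all 14290 tested promoter regions the median shift was 0.05, with 1.01% called higher and 1.74% lower.

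Neutrophil granule and oxidase genes were mostly closed. Of 16 genes, 12 had no promoter peak in any list, among them Mpo, Elane, Ltf, Camp, Lcn2, S100a8 and S100a9. Prtn3, a granule protease, had a peak in the first 0 h library only (18 fragments). Ncf1 and Ncf4, open in all 8 lists, encode cytosolic subunits of the NADPH oxidase, which B cells also express. Ncf4 fell at 2 h, from 87 and 67 fragments at 0 h to 18 and 17 (mean percentile 89.8 ± 2.47 to 47.9 ± 6.2, SD, n = 2; shift -1.33, SE 0.21, limma adjusted p = 0.00548). Ncf1 had 38 and 26 fragments untreated, then 58 and 65 at 2 h (shift 0.59, SE 0.22, adjusted p = 0.0885). Most genes of the neutrophil list and 9 of 10 myeloid markers had no promoter peak, with Mpo and Elane in both lists. Regions away from the promoters of these genes were not examined, and any bearing on the opening was not tested. Of 6 T cell markers 4 had a promoter peak in some list, with 28 to 50 summed fragments at 0 h and 44 to 66 at 2 h, and any part of this in the opening was not tested. Lck, the only one tested, had 44 and 28 fragments untreated, then 23 and 16 at 2 h (shift -0.7, SE 0.27, limma adjusted p = 0.0944). Cd3g had 6 fragments and no peak in the 0 h libraries and 26 and 23 at 2 h, and Cd3e and Cd8a had no peak.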

How the data were processed

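The authors aligned paired-end reads with BWA 0.7.17 in an nf-core workflow, shifted ends for the Tn5 offset (deepTools 2.3.5), kept short fragments and called peaks on each library alone with MACS2 2.1.2, without a control. The methods name a human build, but the processing notes list GRCm38 and peaks of all 21 chromosomes lie inside it. The deposited lists give for each peak the fold over local background (a ratio), the −log10 p-value and q-value, and the summit offset. From the deposited ratio and −log10 p-value the whole number of fragments at the summit was recovered (100.0% of peaks, tolerance 0.001). Recovery and limma were tested on simulated data.

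Overlapping peaks were merged, and the highest peak of each list stood for a region. Normal scores of the percentile of the ratio within a list went into limma 3.58.1 (R 4.3.3; lmFit, eBayes, Benjamini-Hochberg, threshold 0.01) with 4 time groups in 1 model; 1 h against 30 min used those 4 libraries alone. GENCODE M21 gave genes, and sequences came from the GRCm38 genome of RefSeq. Promoter means a start site within 1 kb. The named regions were each opening region, regions at start sites, the 3 others highest at 0 h per locus and any called. Outside this rule, chr2:62643497-62643598, a tested neighbour, and chr10:117338097-117338226 were also named. Members and lists were chosen with earlier results of these data known. A count table was not used here. Tools: Python 3.11.15, scipy 1.17.1, biopython 1.88.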

Additional observations from a re-analysis of the deposited data

How the results depend on the processing

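The rise of the Lyz1 region was 63.5 points without 0 h replicate 2 and 91.9 without 0 h replicate 1, so it depends on which untreated library is used; the other alternatives gave 77.2 to 90.7. That of the Gca region was 89.0 points when ranked among the tested regions and 77.9 on recovered fragments, and 75.2 to 76.4 without single replicates. With a −log10 q of at least 5 the Gca region had no 0 h peak and gave no rise. The Lyz1 region then rose by 82.6 points, but it lacked a peak in some list and was not fitted. The shift of the Ifih1 promoter was -0.07 to 0.44 without single replicates, turning negative without 2 h replicate 1 (-0.07), and stayed uncalled throughout (adjusted p 0.383 to 0.989). The step from 30 min to 1 h kept its sign and was not called at either locus (adjusted p 0.192 to 0.82); in the model of all 8 libraries the adjusted p was 0.784 and 0.353. The Lyz2 promoter lacked induced peaks also with stricter peaks and with summit windows.

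Of the 8 tested regions, 2 were higher at 1 h and at 2 h, both selected on their 0 h and 2 h values, with none at 30 min and none lower. Both contrasts use the 0 h libraries of that choice, so these calls do not support the opening. The counts only show how calls move with the processing. Over all tested regions 0.986% were higher and 1.02% lower at 1 h, and 2.5% and 2.73% at 2 h. At 30 min, 2 were higher on recovered fragments, with a mean trend and robust prior, and at an adjusted p under 0.05. Over regions in at least 2 lists, 20 regions of the windows were fitted. Of these, 1 was higher at 30 min, 3 at 1 h and 2 at 2 h, and 2 were lower at each time. Over all 126504 such regions 3.23%, 4.86% and 5.88% were higher and 4.63%, 5.39% and 5.88% lower. The lower ones were the Lyz2 promoter and chr10:117301725-117301920. Those higher at 1 h included chr10:117336679-117336790 and chr2:62645613-62645741, with a peak at 1 h only and all other values imputed. With a −log10 q of at least 5 only 4 regions could be tested, neither opening region among them, and 0 were higher at 1 h or 2 h. The 20 kb window, which leaves out the Lyz1 region, kept 1 higher at both times. Without single replicates the count was 0 to 0 at 1 h and 0 to 2 at 2 h (0 without either 2 h replicate). Same-numbered replicates did not deviate together (correlations 0.0201 to 0.0371); with the replicate block 1 region was higher at 1 h and 2 at 2 h.

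Over the whole series at 2 h, 1305 regions were lower and 1199 higher (52.1% lower). Ranked among the tested regions these were 2256 and 1092 (67.4% lower), on recovered fragments 3421 and 3761, where the median region rose by 0.22 (log2), with a mean trend 2298 and 2861, and over regions in at least 2 lists 7435 and 7436. Without single replicates they were 0 to 947 and 0 to 631. Fragment numbers of 3 to 8 at weak peaks limit every percentile in the lower range.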
